A study of Mus musculus with 60 samples.

Results

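The stress keratins Krt6a, Krt6b, Krt16 and Krt17 were examined in 60 skin carcinomas, each measured on its own array. The members were the genes whose platform annotation gave one of these symbols, 4 of the 18194 genes with a single symbol on the array. The tumors came from 55 FVBBX mice, the offspring of a cross of SPRET/Ei with FVB/N that was bred back to FVB/N, so that the animals differed in which Mus spretus alleles they carried. All tumors were induced on the back skin with DMBA, a carcinogen, and TPA, a tumor promoter. Every group below therefore shared this treatment, and neither normal skin nor papillomas were analysed here. The labels gave squamous cell carcinoma (SCC) for 38 arrays from 35 mice, spindle carcinoma for 14 arrays from 13 mice and no histology for 8 arrays from 7 mice. The SCCs were well differentiated in 13 mice, moderately in 13 and poorly in 9. In 14 mice the tumor was labeled p53 mutant, and in 41 it was not. Lymph nodes were positive in 15 mice, negative in 19 and without a label in 21. At 20 weeks 17 mice bore fewer than 2 papillomas, called resistant here, and 16 bore more than 7, called sensitive. The coat was agouti in 27 mice and white in 28. The age of the mice was not given in the sources used here.

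Keratins build intermediate filaments, in which a type I keratin always pairs with a type II keratin. Basal keratinocytes of resting epidermis use the pair Krt5 and Krt14, and differentiating cells above them switch to Krt1 and Krt10. Krt6a and Krt6b (type II) and Krt16 and Krt17 (type I) form the set known as stress or wound keratins. Outside the hair follicle, nail and tongue they are low in resting skin, and they are induced when epidermis is wounded, inflamed, treated with phorbol ester or turned into a squamous tumor. Spindle carcinomas of mouse skin are poorly differentiated tumors of elongated cells that arise from squamous ones and are known for loss of epithelial features. In the RefSeq gene table Krt6a and Krt6b are direct neighbors, with 0 genes starting between them, and so are Krt16 and Krt17.

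Values are log2 expression on the RMA scale, on which 1 unit is a doubling, and the means and tests below take the mouse as the unit. The whole table spanned 1.86 to 14.3. Krt6a reached 13 or more on 39 arrays and Krt6b on 38, so both genes bunched near the top of the scale in many tumors, while Krt16 did so on 4 arrays and Krt17 on 0. Whether a ceiling of the scale compressed differences among the highest tumors was not tested. All 4 genes passed the filter on low values. Several facts of the series touch the results. The sex markers went against the label on 9 arrays, among them SCC 24 and spindle 8. This count takes in arrays with signal of both sexes as well as arrays with signal of the other sex alone. Which of the 2 held for each array is not given here. On 3 arrays neither signal reached its cutoff, and these are not in the count. Near-identical profiles from different mice were found for SCC 18 with no histology 3 (r = 0.991 over all probe sets) and for SCC 21 with SCC 22 (r = 0.988). SCC 24, labeled well differentiated, stood apart from all other SCCs in the members. Its profile was closest to that of spindle 14 (r = 0.787 after centering each gene). Where leaving out SCC 24, or all 9 arrays with such sex markers, turned a sign or moved a member's difference by over 1.5 times, the value without them is given.

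All 4 stress keratins were lower in spindle carcinomas than in SCCs, by 4.23-fold for Krt6a, 4.35-fold for Krt6b, 5.99-fold for Krt16 and 5.63-fold for Krt17. Some spindle tumors kept the level of a typical SCC. The SD over mice was 2.06 in spindle and 1.44 in SCC mice for Krt6a, and 0.58 in SCC mice without SCC 24. Krt6a, a type II keratin, lay between 5.40 and 13.6 in the 35 SCC mice, with a median of 13.4, and between 7.58 and 13.6 in the 13 spindle mice, with a median of 10.7. The groups overlapped, with 10 of the 13 spindle mice below the SCC median and 3 at or above the lower quartile of the SCCs. Its paralog Krt6b ranged from 4.36 to 14.0 (median 13.6) in SCC mice and from 6.49 to 13.8 (median 11.1) in spindle mice. Krt16, a type I partner of the Krt6 proteins, ranged from 3.80 to 13.2 (median 12.5) in SCC mice and from 4.51 to 12.9 (median 8.99) in spindle mice. Krt17, a type I keratin of the hair follicle and of activated epidermis, ranged from 3.70 to 12.4 (median 11.3) in SCC mice and from 4.18 to 11.9 (median 7.40) in spindle mice. The lowest SCC in each gene was SCC 24, and no spindle mouse lay below it. Spindle 8 alone was lower in Krt6a (3.60) and Krt6b (3.60), but its value was averaged with that of spindle 9 from the same mouse. Against the next lowest SCC mouse, 7 of the 13 spindle mice were lower in Krt6a, Krt6b and Krt16 and 5 were lower in Krt17.

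**Figure D1:**
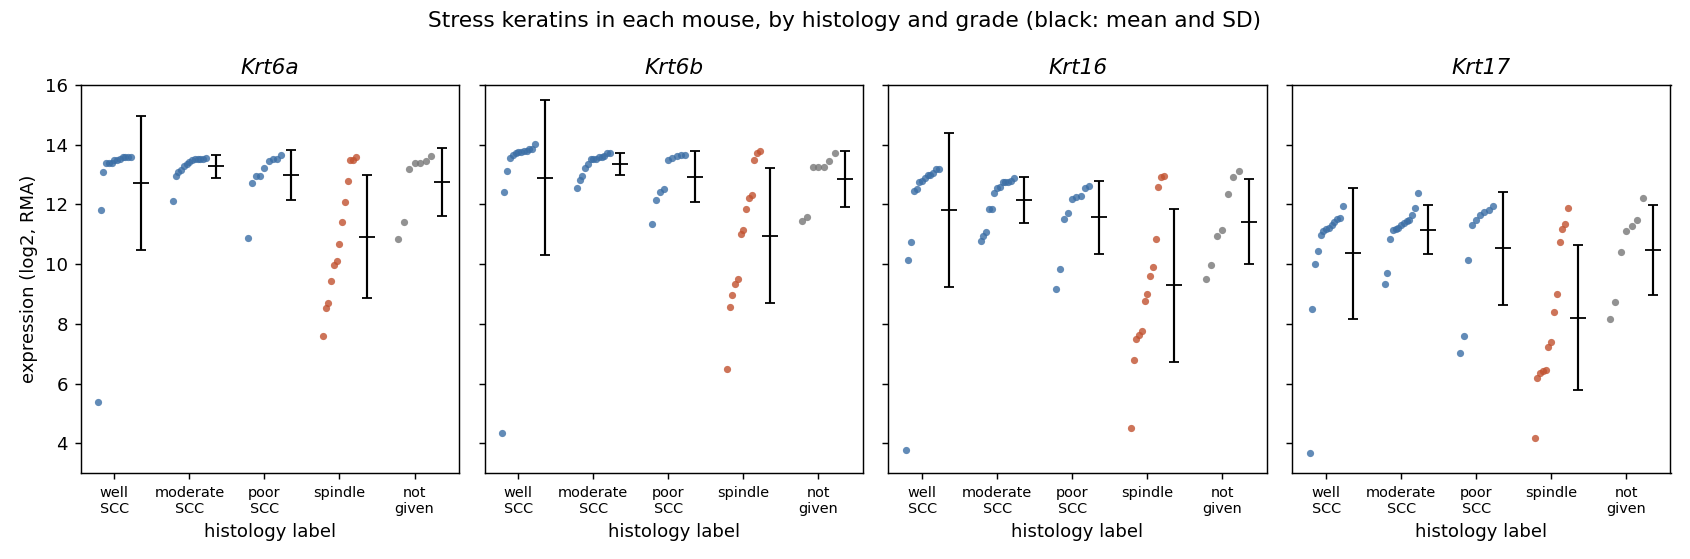
Expression of the 4 stress keratins in each mouse (log2, RMA scale, vertical axis) by histology label (horizontal axis), with 1 point per mouse and the mean and SD in black beside each group (n = 13, 13, 9, 13 and 7 mice). Most SCC mice sit in a narrow band at the top with 1 well differentiated tumor far below it, while spindle mice spread from that band down to 7.58 in Krt6a and 4.18 in Krt17.

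With limma's test over 12791 genes and Benjamini-Hochberg adjustment, Krt6a was at 10.9 ± 2.06 (SD, n = 13) in spindle and 13.0 ± 1.44 (SD, n = 35) in SCC mice, a difference of -2.08 (SE 0.51, adjusted p = 0.00233). The difference was -2.12 for Krt6b (SE 0.57, adjusted p = 0.0048). It was -2.58 for Krt16 (SE 0.62, adjusted p = 0.00197) and -2.49 for Krt17 (SE 0.61, adjusted p = 0.00209). Of all genes tested, 26.5% were called in this comparison and 11.0% were called lower in spindle tumors, so 4 of 4 members called lower stands against a comparison in which many genes moved. The members were chosen with these results known. Without SCC 24 the differences were larger, at -2.31, -2.38, -2.82 and -2.70 in the same order. Without all 9 arrays whose sex markers went against the label they were -1.73, -1.78, -2.36 and -2.17, and each remained called. In whole tumors, fewer keratinocytes and less keratin RNA per keratinocyte cannot be told apart.

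Each probe set of the members is given here because a gene's value came from its brightest one. Krt6a had 3 probe sets, 1422784_at (used above), 1422783_a_at and 1427700_x_at, and the last 2 correlated with the first at r = 0.98 over the 60 arrays. Their differences between spindle and SCC mice were -2.41 (SE 0.54) and -2.25 (SE 0.50), close to that of the one used. Krt6b (1422588_at) and Krt16 (1448932_at) had 1 probe set each. Krt17 had the bright 1423227_at and the dim 1420193_at, which lay between 3.14 and 6.01 and above the array median on only 16 arrays. The dim Krt17 probe set differed by -0.50 (SE 0.16, adjusted p = 0.0317 in limma's test over 34958 probe sets), and averaging both sets moved the Krt17 difference to -1.49 (adjusted p = 0.0022). Krt6a and Krt6b are close in sequence, so signal may be shared between their probe sets, and this was not tested.

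Against poorly differentiated SCCs alone, the sizes of the differences were similar but no member passed the test. The 9 poorly differentiated SCC mice lay between 10.9 and 13.6 in Krt6a, with a median of 13.2. Their range was 11.3 to 13.7 in Krt6b, 9.17 to 12.6 in Krt16 and 7.04 to 12.0 in Krt17. Of the 13 spindle mice, 7 lay below the lowest of them in Krt6a, Krt6b and Krt16 and 5 in Krt17. The spindle minus poorly differentiated SCC difference was -2.07 for Krt6a (SE 0.69), -1.98 for Krt6b (SE 0.74), -2.28 for Krt16 (SE 0.87) and -2.32 for Krt17 (SE 0.91). The adjusted p values of limma's test lay between 0.16 and 0.205. In this smaller comparison 0% of all genes were called, so missing the threshold does not set the members apart. By limma's unadjusted p, 2293 of 12791 genes were under 0.05, and all 4 members were among them (p from 0.00625 to 0.0182). The median difference of the members was -2.17, against 0.02 over all genes. Without the arrays whose sex markers went against the label, these differences shrank to between -1.36 and -1.04 on 18 mice. That removal took out the poorly differentiated SCC 5, SCC 10 and SCC 25 and also spindle 13. It left spindle 9 alone for the mouse of spindle 8.

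No stress keratin passed the test between grades of SCC, and the medians lay close together. In Krt6a the median was 13.5 in well, 13.4 in moderately and 13.2 in poorly differentiated SCC mice, and in Krt16 it was 12.8, 12.6 and 12.2. Krt17 medians were 11.2, 11.3 and 11.5, in the opposite order, and the ranges of the grades overlapped in every member. The poor minus well difference was 0.26 in Krt6a (SE 0.61), 0.04 in Krt6b (SE 0.69), -0.24 in Krt16 (SE 0.73) and 0.15 in Krt17 (SE 0.72). Moderate minus well differences lay between 0.34 and 0.78, and poor minus moderate differences between -0.63 and -0.29, or between -1.14 and -0.58 without the arrays whose sex markers went against the label. None passed limma's test (adjusted p from 0.792 to 1), nor did any other gene: 0% were called in each of the 3 comparisons, with 687, 318 and 1089 genes at an unadjusted p under 0.05. The well differentiated group holds SCC 24, which widened its SD to 2.25 in Krt6a, against 0.39 in moderately differentiated SCCs. Without SCC 24 the poor minus well difference turned to -0.35 in Krt6a, -0.67 in Krt6b and -0.40 in Krt17 and was -0.91 in Krt16, and the moderate minus well difference turned to -0.06 in Krt6a, -0.25 in Krt6b and -0.32 in Krt16 and was 0.22 in Krt17. Without all arrays with sex markers against the label, poor minus well was -0.63, -1.03, -1.46 and -1.02 and moderate minus well was -0.05, -0.18, -0.39 and 0.12 in the order Krt6a, Krt6b, Krt16 and Krt17. This took out SCC 5, SCC 10 and SCC 25 (poor), SCC 31 (moderate) and SCC 20 and SCC 24 (well), and left 29 mice.

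No stress keratin passed the test by p53, nodal status, papilloma class or coat color. By p53 label, Krt16 had a median of 12.4 in the 14 mutant mice and 12.2 in the 41 others, and the ranges overlapped. The p53 mutant minus not mutant difference lay between 0.10 and 0.49 over the members (SE 0.54 to 0.66, adjusted p from 0.843 to 0.976), in a comparison that called 0.281% of genes. Its sign turned without SCC 24 in Krt6a (-0.08) and Krt6b (-0.11), and Krt16 and Krt17 then differed by 0.31 each. Without all arrays with sex markers against the label, the differences were 0.25, 0.18, 0.46 and 0.52. In SCCs alone, with grade as a covariate, they were 0.49 in Krt6a, 0.48 in Krt6b, 1.13 in Krt16 and 1.14 in Krt17, and none was called. Within SCCs, Krt17 was at 11.4 ± 1.54 (SD, n = 8) in p53 mutant and 10.5 ± 1.73 (SD, n = 27) in other mice. Within spindle carcinomas it was at 9.17 ± 2.17 (SD, n = 4) and 7.78 ± 2.53 (SD, n = 9), so the 2 labels overlapped in both histologies.

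By nodal status, all 4 members had lower means in mice with positive nodes, with differences of -0.68 for Krt6a (SE 0.63), -0.80 for Krt6b (SE 0.72), -0.87 for Krt16 (SE 0.77) and -0.47 for Krt17 (SE 0.73). None was called (adjusted p from 0.932 to 0.942 in limma's test), and 0% of all genes were, with 533 at an unadjusted p under 0.05. Without SCC 24, which is a node-positive SCC, the differences shrank to -0.21, -0.25, -0.38 and -0.04 in the same gene order. The node-positive SCC mice ranged from 5.40 to 13.5 in Krt6a against 12.1 to 13.5 in the 14 node-negative SCC mice. In spindle mice the order was the other way, with Krt6a means of 11.7 ± 2.22 (SD, n = 4) for positive and 11.2 ± 2.49 (SD, n = 5) for negative nodes. Without the arrays whose sex markers went against the label, the signs of Krt6a, Krt6b and Krt17 turned, to 0.19, 0.16 and 0.25, and Krt16 was at -0.18.

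Resistant minus sensitive differences were -0.14 in Krt6a (SE 0.38), -0.30 in Krt6b (SE 0.42), -0.44 in Krt16 (SE 0.57) and -0.29 in Krt17 (SE 0.59), with adjusted p from 0.864 to 0.942 and 0% of genes called (1055 at an unadjusted p under 0.05). Without the arrays whose sex markers went against the label, the differences were -0.51, -0.67, -0.89 and -0.82, and without the near-identical arrays they were 0.088, -0.14, -0.19 and 0.033. Both classes reached the same height, with highest Krt6a values of 13.6 in each. Agouti minus white differences were -0.45, -0.68, -0.42 and -0.57 in the same gene order (SE 0.47 to 0.58, adjusted p from 0.877 to 0.955), again with 0% of genes called and 770 at an unadjusted p under 0.05. Without SCC 24, from an agouti mouse, they were -0.19, -0.38, -0.14 and -0.34, and without all arrays with sex markers against the label -0.12, -0.33, -0.22 and -0.46. Agouti mice included 5 and white mice 8 with spindle tumors.

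**Figure D2:**
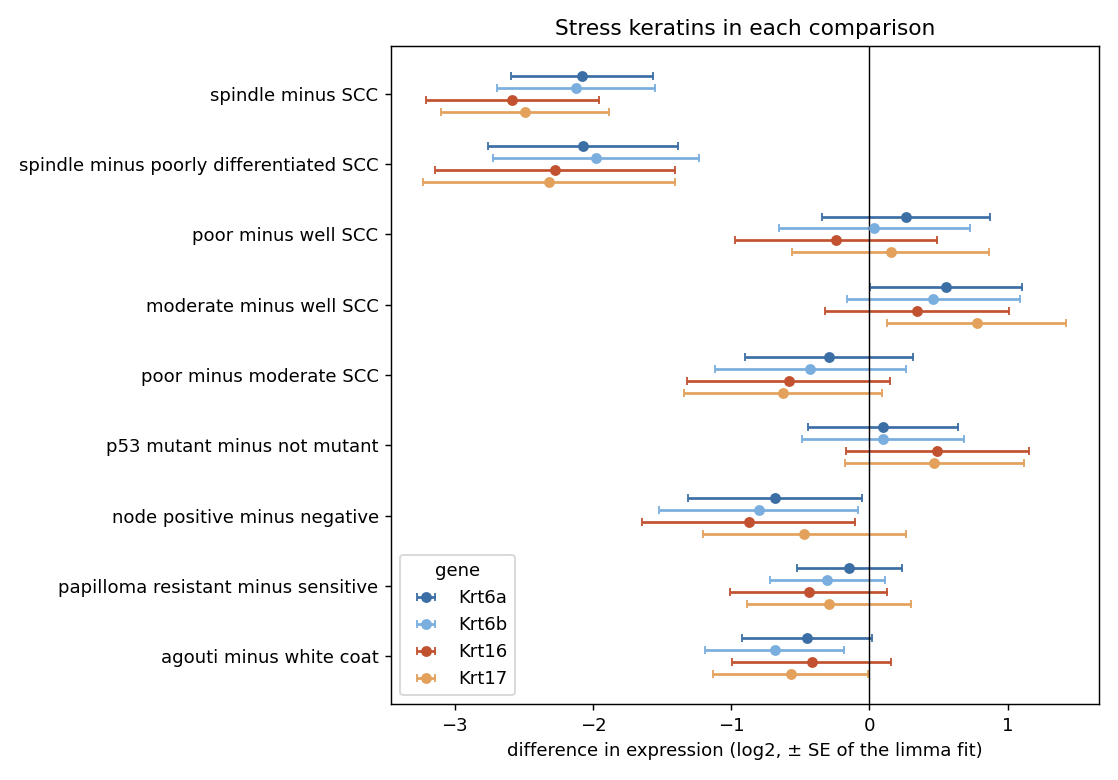
Difference of each stress keratin between the first and the second group of each comparison (log2, horizontal axis), with bars of 1 SE from limma's fit. All 4 members lie near -2 or below in spindle minus SCC and within 1 log2 unit of zero in the comparisons by grade, p53, nodal status, papillomas and coat.

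In the 7 mice without a histology label the members resembled SCCs more than spindle tumors in level. Their Krt6a values ran from 10.8 to 13.6 (median 13.4), Krt6b from 11.4 to 13.7 (median 13.3), Krt16 from 9.52 to 13.1 (median 11.2) and Krt17 from 8.16 to 12.2 (median 11.1). Since the labels put them in no histology, they entered no histology comparison.

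A further label, tumor_class, split the arrays closely along the members. How the class was assigned was not given in the sources used here, and it may have been drawn from expression, so the values are a description with no test. Class 1 held 16 arrays, of which 5 were SCC, 9 spindle and 2 without histology, and class 2 held 44 arrays (33, 5 and 6). Krt6a lay between 3.60 and 12.2 in class 1 and between 12.7 and 13.6 in class 2, with no overlap. Krt6b (3.60 to 12.9 against 12.2 to 14.0), Krt16 (3.80 to 10.4 against 9.83 to 13.2) and Krt17 (3.70 to 9.39 against 7.59 to 12.4) overlapped in part. The 5 spindle arrays of class 2 had a Krt6a median of 13.5, the same as that of the 33 SCC arrays of class 2, and the 5 SCC arrays of class 1 had a Krt6a median of 10.9, against 9.97 in the 9 spindle arrays of class 1. The mean of 12 keratinocyte markers moved with the class too, from 4.94 to 9.67 in class 1 and from 10.7 to 11.7 in class 2. The share of this marker level in the stress keratin values was not tested.

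In 5 mice, as labeled, 2 samples were measured, and the members differed widely between the samples in 3 of them. For 2 of these 3 mice the pairing itself is in doubt, since the sex markers of 1 tumor went against its label in one and the nearest profile of 1 tumor came from another mouse in the other. Spindle 8 and spindle 9 came from the same mouse, and Krt6a was 3.60 in the first and 13.5 in the second. In these tumors Krt6b was at 3.60 and 13.5, Krt16 at 4.03 and 11.5 and Krt17 at 3.72 and 11.1. Spindle 8 thus held the lowest Krt6a and Krt6b of all 60 arrays, while its partner reached the level of SCCs. The sex markers of spindle 8 went against its label, and those of spindle 9 did not. Krt6a was at 10.6 in SCC 22 and 13.6 in SCC 23 of another mouse, and at 9.69 and 13.1 in no histology 6 and 7. In each of these 3 mice the lower sample was of class 1 and the higher of class 2. SCC 22 correlated with SCC 21 of another mouse (r = 0.889 after centering each gene) and not with SCC 23 of its own (r = -0.27). On the same measure r was -0.16 between spindle 8 and spindle 9 and -0.14 between no histology 6 and 7. The remaining 2 pairs shared a class and differed less, by 0.85 (SCC 3 and SCC 4) and 0.07 (SCC 7 and SCC 8) in Krt6a. Their r was 0.58 and 0.68 in that order. SCC 3 and SCC 4 share a tumor number in their labels, as do no histology 6 and 7. Each of these pairs may therefore be 2 samples of 1 tumor.

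**Figure D3:**
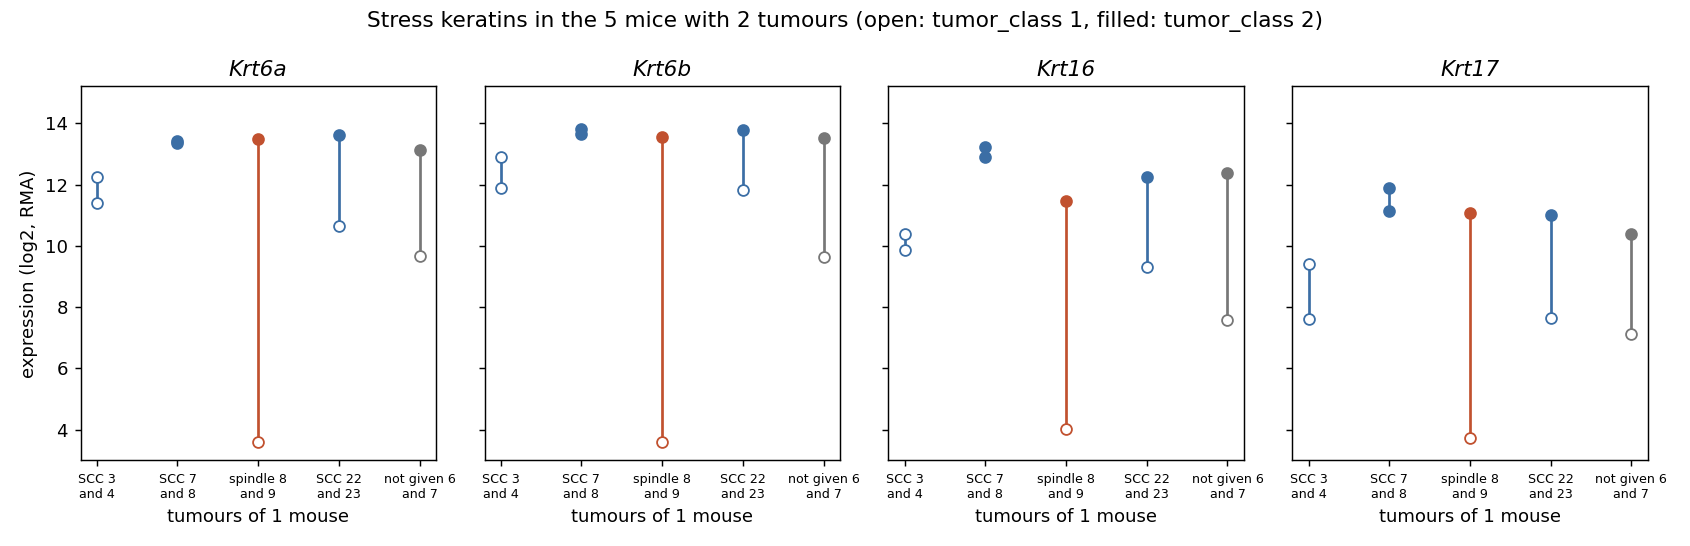
Expression of the stress keratins (log2, RMA scale) on the 2 arrays of each of 5 mice, joined by a line, in blue for SCC, red for spindle and gray for no histology label. Open points are tumor_class 1 and filled points tumor_class 2, and the spindle pair spans 9.89 in Krt6a while SCC 7 and SCC 8 differ by 0.07.

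The 4 members rose and fell together from mouse to mouse. Among the 13 spindle mice Pearson's r between members lay between 0.91 and 0.97, and Spearman's rho between 0.84 and 0.98. Among the 35 SCC mice r lay between 0.85 (Krt6b with Krt17) and 0.98 (Krt6a with Krt6b), and rho between 0.50 and 0.84. Of the 12 relations, each had an adjusted permutation p of 0.00275 or less, and 1e-05 was the smallest that 100000 permutations can give. Leaving out the 2 mice farthest from the median lowered r to between 0.61 and 0.84 in SCCs and to between 0.87 and 0.95 in spindle tumors. The height of r in SCCs thus rested in part on SCC 24 and the next lowest mouse. The neighboring pairs on the genome had r of 0.98 (Krt6a with Krt6b) and 0.88 (Krt16 with Krt17) in SCCs, and 0.96 and 0.97 in spindle tumors.

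**Figure D4:**
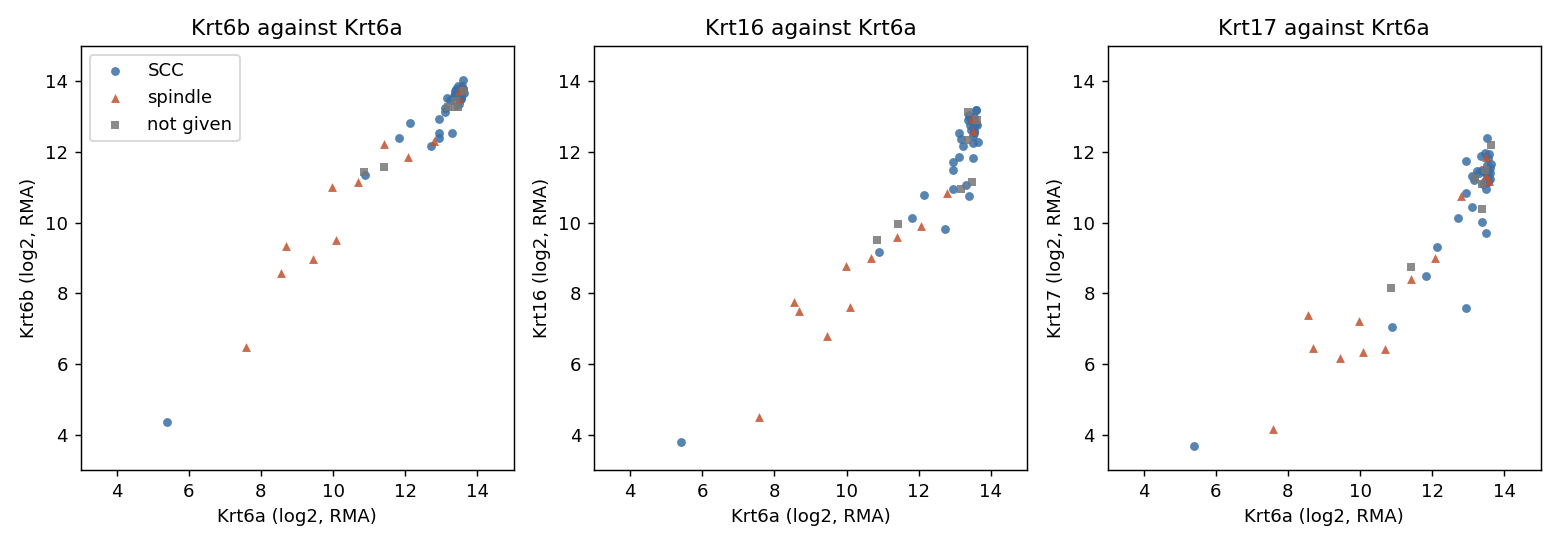
Krt6b, Krt16 and Krt17 (vertical axes) against Krt6a (horizontal axis) in 55 mice, all log2 on the RMA scale, with circles for SCC, triangles for spindle carcinoma and squares for no histology label. The points follow a common line that steepens above 13 in Krt6a, where Krt16 and Krt17 still vary.

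The genes most like each member over the SCC mice were mostly keratinocyte genes, described here with no test. For Krt6a they were Perp (r = 0.986), a desmosomal protein, the basal keratin Krt14 (0.985), Dsp (0.985), which encodes desmoplakin, then Krt6b (0.979) and Krt5 (0.961). In the 13 spindle mice the same genes had r of 0.83 (Perp), 0.98 (Krt14), 0.96 (Dsp), 0.96 (Krt6b) and 0.95 (Krt5) with Krt6a. Krt6b was most like Krt6a (0.979), Perp (0.973), Dsp (0.958), Krt14 (0.953) and Krt16 (0.944). Krt16 was most like Dsc3 (0.961), a desmosomal cadherin, Dmkn (0.958) and Krtdap (0.943), both made by differentiating keratinocytes, along with Krt6b (0.944) and Perp (0.940). Krt17 had another set, S100a14 (0.929), Cdh1 (0.929), which encodes E-cadherin, Serpinb5 (0.919), Trim29 (0.917) and Cdcp1 (0.916). These 5 genes had r with Krt17 of 0.99, 0.94, 0.98, 0.97 and 0.93 over the spindle mice. All of these values share the same arrays. Without SCC 24 the 5 genes had r over the other 34 SCC mice of 0.86 to 0.93 with Krt6a, 0.72 to 0.88 with Krt6b, 0.82 to 0.91 with Krt16 and 0.84 to 0.87 with Krt17.

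Among the other keratins of epidermis and hair, some were lower in spindle tumors, a few were higher and most were not called. Of 43 measured, 35 were tested, and 11 were lower, 2 higher and 22 not called, with a median difference of -0.26 against 0.02 over all genes. The shares called over all genes were 11.0% lower and 15.5% higher. The largest differences were those of Krt13 (-4.17, SE 0.94), Krt4 (-3.17, SE 0.93), Krt19 (-3.07, SE 0.81) and Krt7 (-2.72, SE 0.77). Krt4 and Krt13 form the pair of internal stratified epithelia such as the esophagus, and Krt7 and Krt19 are keratins of simple epithelia. The basal pair changed by about as much as the stress keratins, Krt5 by -2.45 (SE 0.54) and Krt14 by -2.10 (SE 0.52). The pair of differentiating epidermis did not pass the test, with differences of 0.67 for Krt1 (SE 0.79, adjusted p = 0.569 in limma's test) and 0.16 for Krt10 (SE 0.65, adjusted p = 0.884). Krt8, a keratin of simple epithelia, rose by 1.60 (SE 0.56, adjusted p = 0.0292), while its partner Krt18 had a difference of 0.15 (SE 0.47, adjusted p = 0.848). Krt76 was the other keratin that rose, by 1.33 (SE 0.47).

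**Figure D5:**
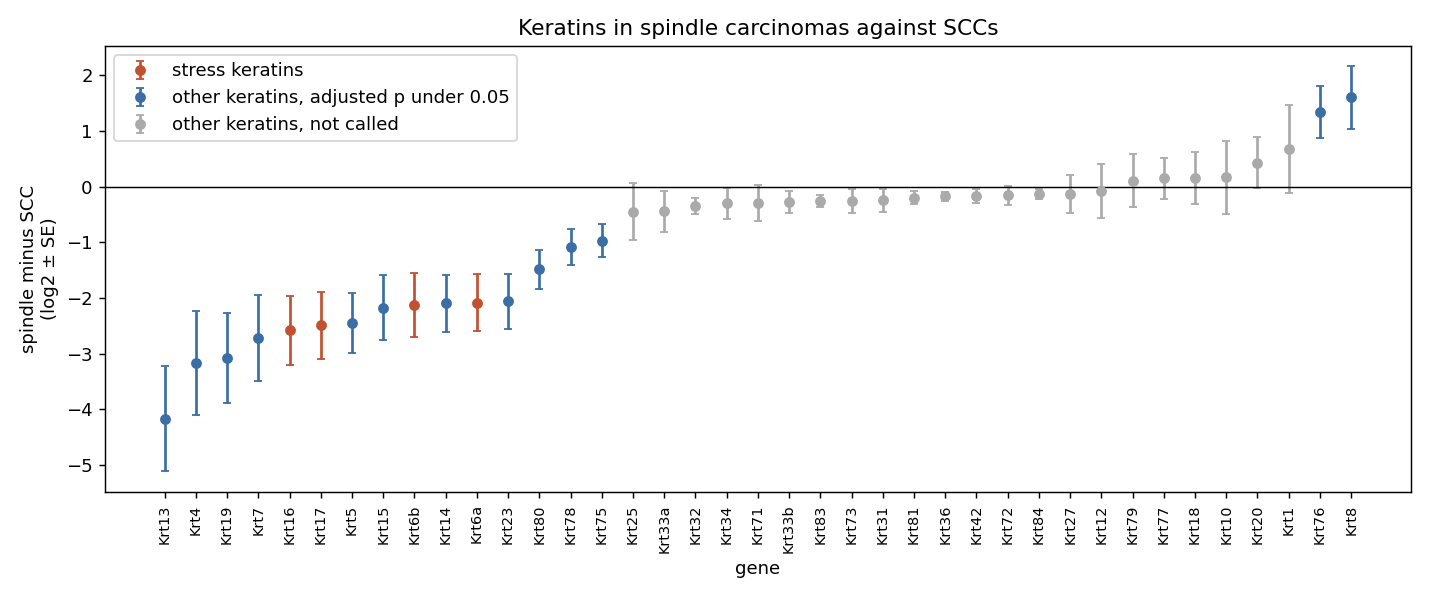
Spindle minus SCC difference (log2, vertical axis) of the 4 stress keratins and the 35 other keratins tested, ordered by size, with bars of 1 SE from limma's fit. The stress keratins lie among Krt5, Krt14 and Krt15, Krt13 has the lowest value at -4.17, and Krt8 and Krt76 are the only keratins called higher.

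Most genes listed as markers of activated epidermis were lower in spindle tumors. Of 34 tested, 23 were lower, 1 was higher and 10 were not called in spindle tumors, with a median difference of -1.29, in a comparison that called 11.0% of all genes lower. The largest were the small proline-rich proteins of the cornified envelope, Sprr2i (-3.59, SE 0.67), Sprr2f (-3.56, SE 0.79), Sprr1b (-3.15, SE 0.66) and Sprr2d (-3.09, SE 0.68). The alarmins S100a8 and S100a9, which activated keratinocytes and neutrophils both make, fell by 0.81 (SE 0.28) and 0.86 (SE 0.29) on the log2 scale. Plaur, the urokinase receptor, was the one that rose (0.43, SE 0.14).

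Of 26 genes named as regulators of these keratins, 7 were lower, 1 was higher and 18 were not called, with a median difference of -0.10. The 8 called of 26 lie near the 26.5% called over all genes in either direction. By direction, 11.0% of all genes were called lower and 15.5% higher. The 7 lower of 26 thus lie above the share for that direction, and the 1 higher below its own. The epithelial transcription factors Trp63 (-2.71, SE 0.56), Ehf (-2.43, SE 0.62) and Grhl3 (-2.31, SE 0.45) and the keratinocyte 14-3-3 protein Sfn (-2.02, SE 0.44) had the largest differences. Nfe2l2, which encodes the oxidative stress factor NRF2, had a difference of -0.21 (SE 0.13, adjusted p = 0.219 in limma's test), and Stat3 one of 0.06 (SE 0.12, adjusted p = 0.732). In no comparison by p53, nodes, papillomas or coat was a gene of these 3 lists called. This does not set the lists apart, since 0.281% of all genes were called by p53 and 0% by each of the others.

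Markers of cell types were measured beside the members. All 12 keratinocyte markers tested were lower in spindle tumors, with a median difference of -2.13, and their mean level per mouse ran from 4.94 to 11.7 (median 11.4) in SCCs and from 5.87 to 11.7 (median 8.46) in spindle tumors. By array, SCC 24, spindle 8 and spindle 14 had the lowest marker means, at 4.94, 5.53 and 5.87. Among 12 fibroblast markers, Pdgfra (1.69, SE 0.34) and Dcn (1.17, SE 0.31) were higher and Thy1 (-0.83, SE 0.24) was lower, and the list mean ran from 8.72 to 11.4 in SCCs and from 9.20 to 11.2 in spindle tumors. Of 11 macrophage markers, C1qa (0.75, SE 0.29) and C1qc (0.83, SE 0.27) were higher. Over all genes 26.5% were called and 15.5% were called higher. The called counts, 3 of 12 fibroblast and 2 of 11 macrophage markers, thus lie near the background. At an unadjusted p under 0.05 in limma's test, 6 of the 11 macrophage markers passed, all of them higher. At that limit 2821 of 12791 genes were higher, and 3 of 12 fibroblast markers passed. The median difference was 0.55 for the macrophage and 0.12 for the fibroblast list, against 0.02 over all genes. By limma's test 0 of 12 striated muscle, 0 of 8 endothelial and 0 of 6 mast cell markers were called, with 0, 0 and 2 at an unadjusted p under 0.05. Hair follicle markers, which bear on Krt17, were lower in 3 of 12 tested and higher in 0, where 11.0% of all genes were called lower. Whether the amount of keratinocytes accounts for the stress keratin differences was not tested.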

How the data were processed

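Total RNA from 60 carcinomas was hybridized to 1 Affymetrix mouse genome array per tumor. The deposited unit is log2 expression of each probe set from RMA by the authors (background correction, quantile normalization over arrays and probe summary; its version and a genome build were not given in the sources used here). Quantile normalization removes a shift shared by most genes, so differences are relative to the whole array. The number of arrays limits the precision, since arrays give no counts.

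Of 45101 probe sets, 34958 had 1 gene symbol in the platform annotation, 932 several and 9211 none. One probe set annotated to both Krt17 and Krt14 was not used. Symbols were updated through RefSeq genes of assembly GRCm38.p6, which matched 34754 probe sets. The probe set of highest mean stood for a gene, which gave 18194 genes. Tests covered the 12791 genes that exceeded the median of the array on 8 or more arrays. Tumors of 1 mouse were averaged. Groups followed the labels, and 0 columns of values were left without a sample. Comparisons used limma 3.58.1 (lmFit and eBayes) under R 4.3.3, and genes with an adjusted p (Benjamini-Hochberg) under 0.05 were called. The 3 SCC grades shared a model. The fitting script was tested on simulated data. Correlations used 100000 permutations. Python 3.11.15 was used for tables and figures.

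The members, gene lists and marker lists were chosen with earlier results of these data known. Named genes were the members with each probe set, the 5 genes of highest r with each member over SCC mice, and up to 4 genes of largest difference per list. Krt1, Krt5, Krt8, Krt10, Krt14, Krt18, Krt76, S100a8, S100a9, Plaur, Nfe2l2 and Stat3 were named from the lists besides, after their values were seen. Of other cell type markers, 2 of 8 neutrophil, 1 of 6 T and NK cell, 0 of 4 B and plasma cell (0 at an unadjusted p under 0.05) and 2 of 4 adipocyte markers were lower in spindle tumors, and 1 of 4 melanocyte markers was higher. Over all genes 11.0% were called lower and 15.5% higher, and lists this short cannot be told from those shares.

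Alternatives tried were no filter, a filter on 30 arrays, averaging the probe sets of a gene, testing each probe set, keeping every tumor with the mouse as a random effect, scaling to a common 75th percentile, the trend and robust options of eBayes, and covariates for sex, histology or grade. A slope on log2 of papillomas plus 1 replaced the papilloma classes. The 3 arrays on which Gapdh differed most between its 3′ and 5′ probe sets, the 9 arrays with sex markers against the label, or 4 near-identical arrays (r over 0.987, a limit set after the values were seen) were left out. Leaving out SCC 24 was added after seeing the data. Promoter and protein sequences of the members were not used here.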

Additional observations from a re-analysis of the deposited data

Results flagged for a closer look

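Single mice far from the others of their group were looked for in 11 groups of 4 to 10 mice, in each of the 4 members, with Dixon's ratio at its 95% critical value. Chance flags about 1 in 20 groups, and 6 of the 44 sets of a gene and a group were flagged. Among the 10 node-positive SCC mice, SCC 24 was far below the rest in Krt6a (5.40), Krt6b (4.36) and Krt16 (3.80). This array's sex markers went against its label, and its mean of 12 keratinocyte markers was 4.94. Among the 9 poorly differentiated SCC mice, SCC 21 was low in Krt6a (10.9), and the same mouse was low in Krt6b (11.3) among the 10 resistant SCC mice. SCC 21 is one of the arrays near-identical to one of another mouse. Among the 8 SCC mice with mutant p53, SCC 30 was low in Krt17 (7.59), and it was also the lowest of them in Krt6a (12.9) and Krt6b (12.4), where the gap to the next mouse was small. The cause of these values was not tested.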

How the results depend on the processing

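The 4 members remained lower in spindle tumors and called under all 12 alternatives, with Krt6a between -2.44 and -1.73, Krt6b between -2.46 and -1.78, Krt16 between -2.82 and -2.36 and Krt17 between -2.73 and -1.49, and adjusted p from 2.94e-05 to 0.00899. Outside this comparison no member was called under any alternative, and 24 of 452 member values changed sign. Without the arrays whose sex markers went against the label, poor minus well was -0.63 (Krt6a), -1.03 (Krt6b) and -1.02 (Krt17), and moderate minus well was -0.053 (Krt6a), -0.18 (Krt6b) and -0.39 (Krt16); node positive minus negative was 0.19 (Krt6a), 0.16 (Krt6b) and 0.25 (Krt17). Without near-identical arrays, poor minus well was 0.14 (Krt16), and resistant minus sensitive was 0.088 (Krt6a) and 0.033 (Krt17). Without SCC 24, poor minus well was -0.35, -0.67 and -0.40 (Krt6a, Krt6b, Krt17), moderate minus well was -0.056, -0.25 and -0.32 (Krt6a, Krt6b, Krt16), and p53 mutant minus not mutant was -0.08 and -0.11 (Krt6a, Krt6b). The p53 difference of Krt6a and Krt6b was -0.087 and -0.11 with every tumor and mouse as a random effect, and -0.31 and -0.31 without the 3 arrays on which Gapdh differed most between its 3′ and 5′ probe sets. Those arrays were SCC 6, SCC 36 and spindle 9. Their removal left spindle 8 alone (Krt6a 3.60) for a p53 mutant mouse whose mean of 2 arrays was 8.55. The lowest spindle minus SCC values of Krt6a (-2.44) and Krt6b (-2.46) came from the same removal. Spindle minus SCC called 5330 probe sets when every probe set was tested, since more features were tested than the 12791 genes, of which 3391 were called. The p53 comparison called 36 genes, and 10 with no filter, 13 with a random effect, 23 with the mean of probe sets, 66 probe sets when every one was tested, 13 with a common 75th percentile, 20 without the Gapdh arrays, 0 without the sex marker arrays, 8 without near-identical arrays and 5 in SCCs with grade as a covariate. The cause was not tested. Correlations and same-mouse differences changed little with a common 75th percentile. A random effect could not be fitted for spindle minus poorly differentiated SCC, where 1 mouse had 2 tumors. No paired analysis was possible because the labels number no replicates, and numbers given in accession order pair nothing. Array signal near the top of the scale may limit what Krt6a and Krt6b can show among the highest tumors, which was not tested.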
